A study of Mus musculus with 12 samples.

Results

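Natural killer (NK) cells sorted from MC38 tumours of mice labelled TYK2 knockout (KO) were compared with those of wild type mice (WT). MC38 is a mouse colon adenocarcinoma line. The comparison holds 4 of the 12 libraries of the series, 2 labelled KO and 2 labelled WT, chosen by their titles, and covers all genes of the count table. The other libraries were CD8 T cells of KO and WT mice, and both cell types from mice with kinase-inactive TYK2, labelled TYK2KE. All 12 entered the fits. TYK2 is a Janus kinase that sits on the receptors for type I interferon, IL-12, IL-23 and some members of the IL-10 family. It passes their signal to STAT transcription factors, which with IRF9 switch on the interferon-stimulated genes (ISG). In NK cells, type I interferon and IL-12 are known to support the content of cytotoxic granules and the secretion of interferon gamma.

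All mice were on a C57BL/6N background and carried MC38 cells injected under the skin of each flank. Tumours were taken after 8 to 10 days, and no drug was given. The WT mice carried unaltered Tyk2. The KO mice were homozygous for the tm1Biat allele of Tyk2. The study holds this allele in a plain line and in a line that also carried a CMV-cre transgene, active in most tissues. Its sources differ on which was used here. The methods give the plain line for the tumour experiments, a sample sheet names a CMV line for these KO libraries, and the labels give only the genotype. Neither line limits the loss of TYK2 to NK cells, so the tumour host lacked it in its other cells too. Each library came from 300 NK cells, gated as CD45 positive, CD3ε negative and NK1.1 positive after magnetic enrichment of CD45 positive cells. Nothing in the labels says whether the libraries of a group came from separate animals, so the p-values measure only the spread between these libraries.

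Total counts were 12324591 and 12698865 in KO 1 and KO 2, and 12383050 and 13021485 in WT 1 and WT 2. Between 12830 and 13804 genes had a count in each of the 4 libraries. Levels are given as CPM (counts scaled by the TMM method to a common library total of 1000000), and 3 counts, taken as the detection floor of a library, correspond to 0.222 to 0.251 CPM. Reads were amplified by PCR without molecular identifiers, so floors and intervals of counts cover counting error only. Pearson's r of log2 CPM over the 13279 genes tested, which are not independent replicates, was 0.77 between the WT libraries and 0.75 between the KO libraries. It was 0.75 for KO 1 with either WT library, and 0.69 to 0.70 for KO 2.

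Tyk2 RNA levels overlapped between the genotypes. The gene lies on GRCm38 chr9:21104068-21131243, minus strand. It had 60.8 and 68.9 CPM in WT 1 and WT 2, and 56.3 and 105 CPM in KO 1 and KO 2. The groups overlapped, and the fitted log2 difference was 0.31 with a standard error (SE) of 0.48 (adjusted p = 1.00 by edgeR). Counts were summed over all exons, so this level cannot show whether the reads came from the altered part of the gene. Each direction below therefore rests on the genotype label.

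The sort markers matched the gate for the most part. Ptprc, which encodes CD45, had 2424 and 2786 CPM in WT and 2481 and 2667 CPM in KO. Ncr1, the NK receptor NKp46, had 843 and 934 CPM in WT 1 and WT 2, and 2049 and 1230 CPM in KO 1 and KO 2. Both KO libraries lay above both WT libraries for Ncr1 (log2 difference 0.88, SE 0.24, adjusted p = 0.59 by edgeR). Klrb1c, which encodes NK1.1, had 1066 and 1435 CPM in WT and 2152 and 1556 CPM in KO (log2 difference 0.57, SE 0.42). Cd8a stayed at 2.70 to 4.52 CPM. Cd3e, the T cell receptor chain excluded by the gate, was at 8.96, 7.17 and 9.93 CPM in WT 1, WT 2 and KO 1 and at 51.7 CPM in KO 2. The higher Cd3e level thus came from KO 2 alone.

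No gene passed the threshold for a differentially expressed gene (DEG, false discovery rate or FDR under 0.05 and a log2 fold change of at least 1 in size). The robust quasi-likelihood F-test of edgeR, adjusted by Benjamini-Hochberg over 13279 genes, called 0 DEG (0%), and its lowest adjusted p was 0.197. At an unadjusted p under 0.05, 531 genes lay lower in KO and 306 higher, together 6.30% of those tested where 5% would be the nominal share. DESeq2 on the same libraries called 363 DEG, 252 lower (1.90%) and 111 higher (0.836%). With 2 libraries against 2, an exact permutation test of a single gene cannot go below p = 0.333. The gene values below are therefore descriptions. A gene is called lower or higher at the unadjusted level where p was under 0.05, the log2 fold change was at least 1 in size and both KO libraries lay on one side of both WT libraries. This held for 452 lower genes (3.40% of all tested) and 216 higher genes (1.63%). These shares are the background against which each gene group is to be read.

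ISG were called lower in KO at a share above the background. Of 90 genes in 4 ISG lists, 89 were tested, 34 (38.2%) were called lower against a background of 3.40%, and 1 was called higher. The log2 difference was negative for 75 of the 89, with a median of -1.58, or -1.52 when genes with a group at 0 counts were set to their bound, against -0.01 over all genes. Irf7, the transcription factor that amplifies type I interferon production, had 607 and 453 CPM in WT and 97.1 and 102 CPM in KO. It was 5.33-fold lower (log2 difference -2.41, SE 0.67, adjusted p = 0.59 by edgeR), and the KO libraries were nearly level. Bst2, the membrane protein tetherin that holds budding virus at the cell surface, had 272 and 217 CPM in WT and 50.9 and 55.5 CPM in KO, a 4.60-fold difference (log2 difference -2.20, SE 0.47, adjusted p = 0.42 by edgeR). Isg20, an RNA exonuclease, had 201 and 120 CPM in WT and 55.9 and 64.6 CPM in KO (log2 difference -1.42, SE 0.38). In all 3 of these genes the KO libraries sat close together and below the lower WT library.

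**Figure D1:**
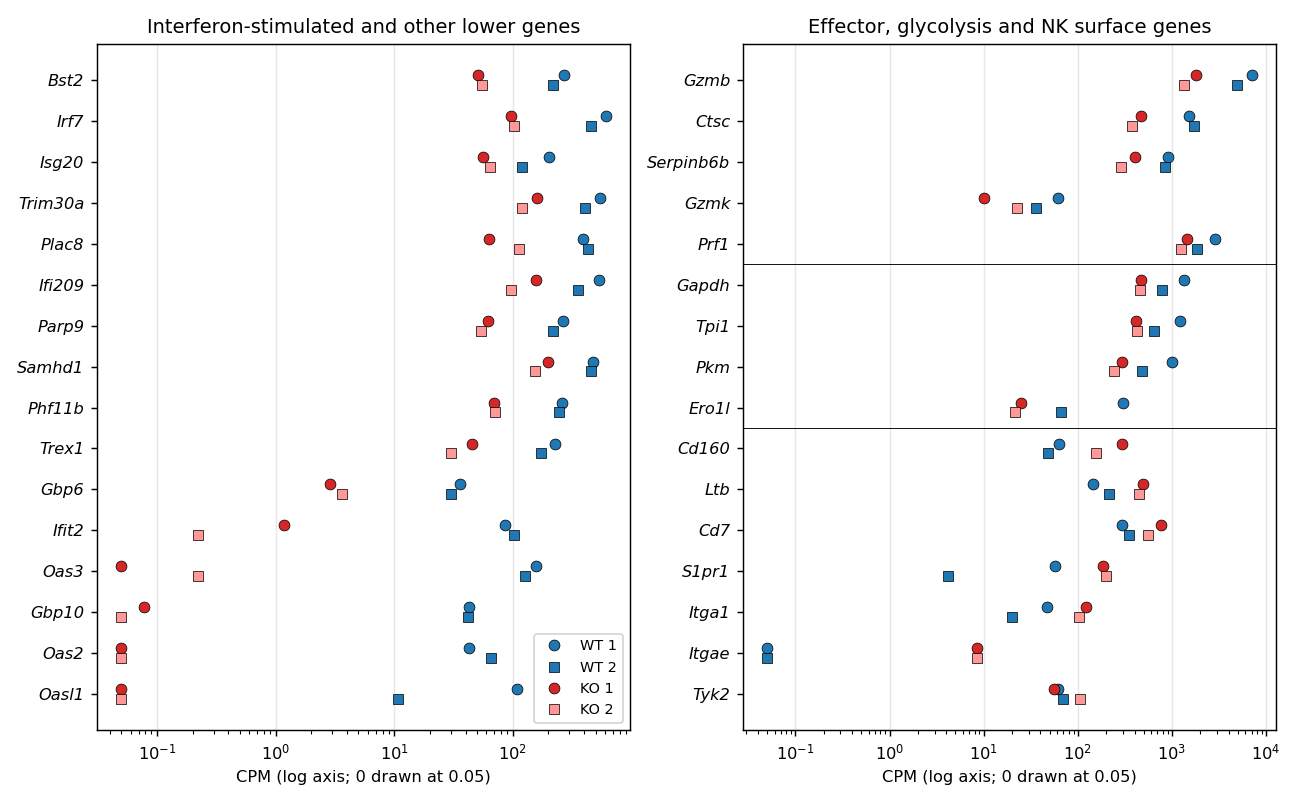
Level of each gene in the 4 NK libraries, as CPM on a log axis with 0 drawn at 0.05. Circles are replicate 1 and squares replicate 2, blue for WT, dark red for KO 1 and light red for KO 2. The upper ISG such as Bst2 and Irf7 lie lower in KO but stay measurable, Oas2 and Oasl1 are at 0 in both KO libraries, and Tyk2 overlaps between genotypes.

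Further lower genes stayed measurable in both KO libraries. They were taken from the ISG lists or, for Samhd1, Trex1 and Phf11b, which are in none of these lists, from the lower genes with the smallest p, so that their direction was fixed by the choice. Trim30a, a TRIM protein known to restrain Toll-like receptor signalling, had 548 and 404 CPM in WT and 161 and 120 CPM in KO (log2 difference -1.76, SE 0.34, adjusted p = 0.38 by edgeR). Samhd1, which degrades deoxynucleotides, had 475 and 455 CPM in WT and 196 and 155 CPM in KO (log2 difference -1.41, SE 0.29). Trex1, a DNA exonuclease that clears cytosolic DNA, had 228 and 174 CPM in WT and 45.2 and 30.3 CPM in KO, 5.34-fold lower. Plac8, a small cysteine-rich protein, had 389 and 433 CPM in WT and 63.3 and 113 CPM in KO, 4.66-fold lower (adjusted p = 0.20 by edgeR). Ifi209 of the p200 family, Parp9 and Phf11b lay 3.49-, 4.21- and 3.61-fold lower. Parp9 overlaps Dtx3l on the other strand, and p200, GBP and OAS genes have near copies, so that their counts could be split or shared.

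Other ISG were present in WT and at or near 0 counts in both KO libraries. Oas3, which makes the 2-5A messenger that activates RNase L, had 158 and 127 CPM in WT, and 0 and 3 counts in KO 1 and KO 2. The WT level was 1244-fold the KO level, with an exact 95% counting interval of 425 to 6034. Oas2 had 512 and 846 counts in WT, against 0 in both KO libraries, at least 237-fold lower against the floor of 3 counts in each library. Oasl1 had 0 counts in both KO libraries too, but its WT libraries stood apart with 109 and 10.9 CPM. Ifi44 had 158 and 127 CPM in WT and 0 counts in KO, at least 624-fold lower. Ifit2, an RNA-binding antiviral protein, had 85.3 and 102 CPM in WT, against 1.17 CPM in KO 1 and 0.222 CPM in KO 2. Gbp10, a guanylate-binding protein of the interferon response, had 511 and 549 counts in WT, against 1 and 0 in KO, while Gbp6 of the same family stayed measurable at 2.89 and 3.62 CPM against 36.1 and 30.0 CPM in WT. Oas2, Oas3, Oasl1, Ifi44 and Gbp10 were thus at or under the floor in both KO libraries, while Ifit2 lay above it in KO 1 and Gbp6 in both.

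By family, the IFIT, MX and viperin list had 8 of 18 members called lower (median log2 difference -2.27). The TRIM, Schlafen, p200, PARP and Ly6 list had 14 of 34 (median -1.56). The GBP and IRG GTPases had 6 of 18 (median -0.81), and the OAS genes and nucleic acid sensors 6 of 19 (median -0.94). The last 2 lists depended most on single libraries. The OAS list had 2 or 3 members called with any 1 library left out, and its median went to -2.00 without KO 2 and -1.61 without WT 1. The GBP median went to -1.43 without KO 1. Trim12a was the ISG list member called higher, with 121 and 104 CPM in WT and 235 and 258 CPM in KO. Not every ISG separated the groups. Ifit1 had 112 and 118 CPM in WT and 24 and 79.7 CPM in KO (log2 difference -1.15, SE 1.48), and Isg15, the ubiquitin-like modifier, had 18.8 and 0.231 CPM in WT and 6.73 and 4.43 CPM in KO (log2 difference -0.78, SE 2.18). The study compiled 2 other ISG lists from earlier publications, of which the robust ISG had 13 of 47 tested members called lower and the tunable ISG 3 of 11. These counts fell to 5 and 1 without KO 2, 6 and 1 without WT 1, and 3 and 1 with the myeloid score in the fit, and the tunable count to 1 without KO 1. Fits that left out 1 library at a time called 23 to 31 of the 89 ISG of the 4 lists lower, fewest without WT 2, and the fit with the myeloid score called 18. Myeloid transcripts, given below, were also lower in both KO libraries by this score.

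**Figure D2:**
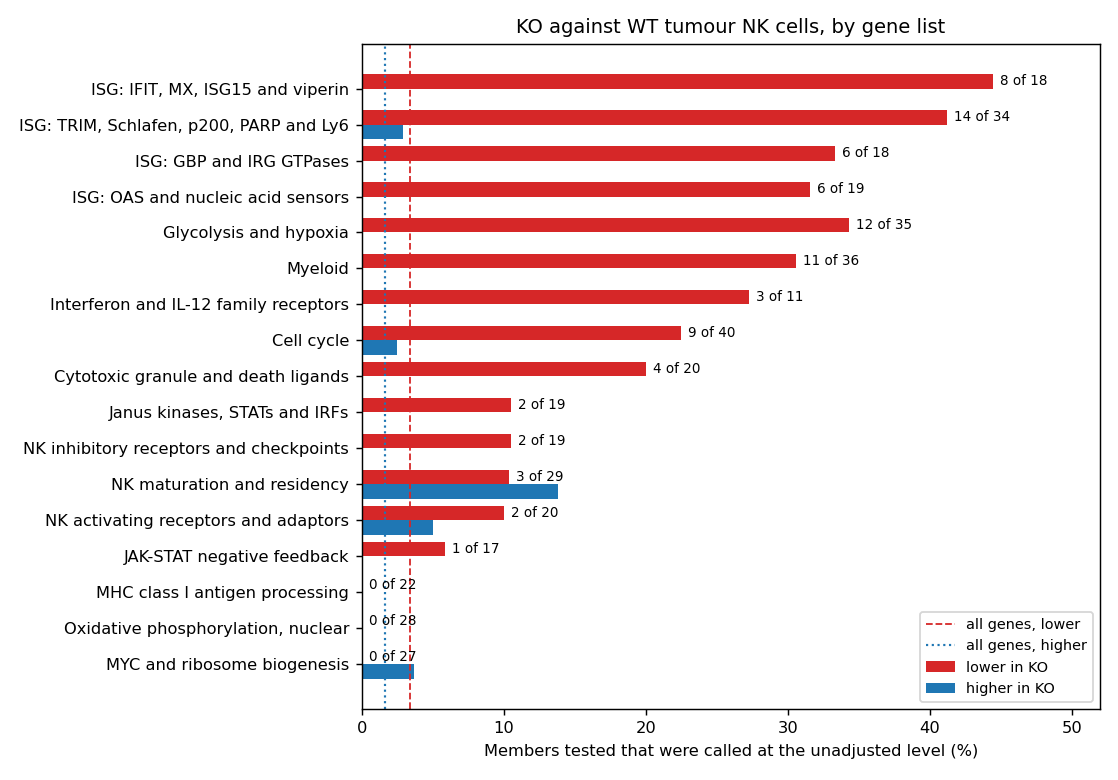
Share of the tested members of each gene list called lower (red) or higher (blue) at the unadjusted level in KO against WT NK cells, in percent, with the number called lower of the number tested. Dashed and dotted lines mark the shares over all genes, 3.40% lower and 1.63% higher. The ISG lists and the glycolysis list reach the highest shares for lower genes, followed by the myeloid list, and the MHC class I, oxidative phosphorylation and MYC lists have 0 lower members.

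The promoters of ISG commonly carry the interferon-stimulated response element (ISRE), bound by the STAT and IRF complex. Its core was searched as TTTCNNTTTC or, on the other strand, GAAANNGAAA, in the 250 bases before each RefSeq start site (GRCm38.p6). Of the lower ISG, Bst2, Trim30a and Oas3 held it, as did Phf11b, and Gzmb, the granule gene described below, did not. These are shown as the still measurable and the near-absent kind of lower gene and an effector gene for contrast, 5′ to 3′ on the gene's strand, with the match in capitals.
Bst2 (chr8:71537473-71537722, minus): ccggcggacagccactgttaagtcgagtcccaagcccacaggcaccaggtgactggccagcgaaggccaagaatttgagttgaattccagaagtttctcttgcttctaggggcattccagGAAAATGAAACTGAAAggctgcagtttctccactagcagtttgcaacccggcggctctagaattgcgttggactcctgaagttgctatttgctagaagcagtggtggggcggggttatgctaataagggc
Trim30a (chr7:104465194-104465443, minus): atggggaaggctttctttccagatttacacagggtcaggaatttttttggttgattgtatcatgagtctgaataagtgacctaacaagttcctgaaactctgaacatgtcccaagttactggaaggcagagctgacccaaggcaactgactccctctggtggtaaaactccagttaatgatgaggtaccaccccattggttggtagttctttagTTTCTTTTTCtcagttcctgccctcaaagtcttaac
Phf11b (chr14:59341331-59341580, minus): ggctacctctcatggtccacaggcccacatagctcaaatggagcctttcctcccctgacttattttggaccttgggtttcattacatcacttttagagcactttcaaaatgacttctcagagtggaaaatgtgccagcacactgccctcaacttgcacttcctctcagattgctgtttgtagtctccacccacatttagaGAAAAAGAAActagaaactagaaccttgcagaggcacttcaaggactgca
Oas3 (chr5:120777660-120777909, minus): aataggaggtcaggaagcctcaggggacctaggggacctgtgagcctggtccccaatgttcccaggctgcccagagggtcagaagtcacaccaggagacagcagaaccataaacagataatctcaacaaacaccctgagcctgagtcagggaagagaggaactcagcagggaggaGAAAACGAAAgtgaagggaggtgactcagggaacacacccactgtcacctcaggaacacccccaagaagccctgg
Gzmb (chr14:56262335-56262584, minus): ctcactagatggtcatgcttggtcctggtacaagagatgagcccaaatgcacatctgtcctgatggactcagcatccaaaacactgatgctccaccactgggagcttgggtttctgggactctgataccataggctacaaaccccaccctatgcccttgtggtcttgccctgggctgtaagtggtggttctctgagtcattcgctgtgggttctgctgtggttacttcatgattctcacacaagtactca
The match began 124 and 130 bases before the start site in Bst2, where 2 copies overlap, and 36, 50 and 75 bases before it in Trim30a, Phf11b and Oas3. Trim30a had 2 promoters in the table, and the one with the match is shown. Over all 32851 promoters of this length the core was found in 2.98%. Of the genes tested with a promoter in the table it was found in 3.44%, of the genes called lower in 25 of 327 (7.65%), and of the genes called higher in 8 of 163 (4.91%). Among ISG list members with a promoter in the table it was found in 33 of 61 tested (54.1%) and in 9 of 21 called lower (42.9%). Only these 21 of the 34 lower ISG had a promoter in the table, and the rest were not searched. Outside the ISG lists, 16 of 306 lower genes held it (5.23%).

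Among genes of the pathway itself, the calls lay in cytokine receptors, IRFs and a phosphatase. The interferon and IL-12 family receptor list had 3 of 11 tested members called lower (27.3%) and 0 higher, with 10 negative differences and a median of -0.45. It had 1 to 2 called with 1 library left out, 1 without WT 2, and 0 with the myeloid score described below in the fit. Il27ra, a receptor chain for IL-27, had 146 and 198 CPM in WT and 58.8 and 83.3 CPM in KO (log2 difference -1.28, SE 0.44). Il10ra, a chain of the IL-10 receptor, had 319 and 250 CPM in WT and 125 and 121 CPM in KO (log2 difference -1.22, SE 0.51). Il6ra had 284 and 263 counts in WT, against 0 in both KO libraries, at least 96.5-fold lower. Of 19 Janus kinases, STATs and IRFs, 2 were called lower, 1 without KO 1 or without WT 1, and 0 with the score. The genes called were Irf7 and Irf8, a factor of myeloid and NK development, with 1732 and 1296 CPM in WT and 629 and 860 CPM in KO (log2 difference -1.03, SE 0.37). Irf9 (log2 difference -0.87, SE 0.52) and Stat2 (log2 difference -0.19, SE 0.77), the partners in the ISG factor, did not pass. Among 17 genes of negative feedback only Ptpn1, a phosphatase that acts on JAK2 and TYK2, was called lower, from 199 and 183 CPM in WT to 68.7 and 81.1 CPM in KO. Il2ra, the high-affinity chain of the IL-2 receptor, had 197 and 362 counts in WT, against 0 and 6 in KO, and was the called member of the common gamma chain list (1 of 10).

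Granzyme B and the protease that activates it were among the effector genes called lower. Gzmb had 7001 and 4886 CPM in WT 1 and WT 2, and 1797 and 1343 CPM in KO 1 and KO 2. The groups did not overlap, and the KO level was 3.80-fold lower (log2 difference -1.92, SE 0.59, adjusted p = 0.64 by edgeR). Ctsc, that protease, had 1511 and 1704 CPM in WT and 470.0 and 373 CPM in KO (log2 difference -1.93, SE 0.29, adjusted p = 0.20 by edgeR). Serpinb6b, an inhibitor of granule proteases, had 901 and 843 CPM in WT and 405 and 285 CPM in KO. Gzmk had 61.5 and 35.8 CPM in WT and 10.0 and 22.5 CPM in KO. These 4 were the called members of 20 tested genes of granules and death ligands, with 0 called higher and a list median of -0.55. Perforin, the pore-forming protein, did not pass. Prf1 had 2897 and 1855 CPM in WT and 1441 and 1234 CPM in KO, lower in both KO libraries (log2 difference -0.83, SE 0.50, adjusted p = 0.77 by edgeR). Ifng, the interferon that TYK2-dependent IL-12 signalling is known to induce, had 93.3 and 96.4 CPM in WT and 180 and 124 CPM in KO (log2 difference 0.68, SE 0.69, adjusted p = 0.98 by edgeR).

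Genes of glycolysis were called lower in part, and WT 1 stood highest. Of 35 genes of glycolysis and hypoxia, 12 were called lower and 0 higher, with negative differences in 30 and a median of -1.05. Gapdh, which oxidises glyceraldehyde 3-phosphate, had 1340 and 783 CPM in WT and 466 and 459 CPM in KO (log2 difference -1.20, SE 0.25, adjusted p = 0.41 by edgeR). Tpi1 had 1204 and 644 CPM in WT and 418 and 430 CPM in KO, and Pkm, the last enzyme of glycolysis, had 1005 and 476 CPM in WT and 292 and 240 CPM in KO. Ero1l, an oxidase of the endoplasmic reticulum induced by hypoxia, had 298 CPM in WT 1, 65.7 CPM in WT 2, and 25.1 and 21.5 CPM in KO. In each of these genes both KO libraries lay below WT 2, and WT 1 lay above it. The summed CPM of the list was 16537 in WT 1, 9419 in WT 2, and 5906 and 7017 in KO 1 and KO 2. Without WT 1 the fit called 1 list member lower and the list median was -0.53. It called 6 without KO 1, 10 without KO 2 and 11 without WT 2. Nuclear genes of oxidative phosphorylation showed no such pattern, with 0 of 28 called in either direction and a median of 0.07.

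Few surface receptors of NK cells were called, and the calls changed with single libraries. Cd160, a receptor for HVEM and MHC class I ligands, had 63.8 and 47.9 CPM in WT and 294 and 157 CPM in KO, 4.03-fold higher (log2 difference 2.01, SE 0.37, adjusted p = 0.34 by edgeR). Slamf7, an activating receptor of the SLAM family, had 286 and 267 CPM in WT and 131 and 85.0 CPM in KO (log2 difference -1.36, SE 0.41). Sh2d1b2, which encodes the SLAM adaptor ERT, had 424 and 524 counts in WT, against 2 in each KO library. These were the called members among 20 activating receptors and adaptors, 1 higher and 2 lower. The lower calls numbered 0 without KO 2, 1 without any other single library and 0 with the myeloid score in the fit. Of 19 inhibitory receptors and checkpoints, 2 were called lower, and 1 without KO 1 or without WT 1. Havcr2, which encodes TIM-3, had 26.4 and 56.2 CPM in WT and 3.13 and 0.517 CPM in KO, and Lag3 had 87.7 and 34.8 CPM in WT and 10.4 and 23.3 CPM in KO. Pdcd1, which encodes PD-1, stood apart in KO 1 alone, with 29.6 CPM against 0.837, 2.39 and 1.33 CPM in WT 1, WT 2 and KO 2.

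Genes of maturation and tissue residency were called in both directions, 3 lower and 4 higher of 29. Cd69, an early activation and retention marker, had 496 and 299 CPM in WT and 151 and 52.9 CPM in KO (log2 difference -1.97, SE 0.50). Prdm1, the transcription factor BLIMP-1, had 89.0 and 99.3 CPM in WT and 36.1 and 22.8 CPM in KO, and its log2 difference went from -1.68 to -0.76 with the myeloid score described below in the fit. The list had 1 member called lower without KO 2 and 0 with the score, and 2 called higher without KO 1, without WT 1 or with the score. S1pr1, the receptor that guides lymphocytes out of tissue and is antagonised by CD69, had 57.3 and 4.16 CPM in WT and 183 and 197 CPM in KO, with the WT libraries far apart. Cd7, an immunoglobulin superfamily member of T and NK cells, had 298 and 346 CPM in WT and 769 and 551 CPM in KO. Itga1, the CD49a chain, had 46.6 and 20.0 CPM in WT and 123 and 104 CPM in KO, and Itgae, the CD103 chain, had 0 counts in both WT libraries and 108 and 115 counts in KO, at least 35.1-fold higher. Of 15 cytokines and chemokines 1 was called in each direction. Csf1, macrophage colony-stimulating factor, was called lower on few counts, with 48 and 5 in WT, against 0 and 1 in KO. Ltb, lymphotoxin beta, was called higher, with 144 and 215 CPM in WT and 489 and 451 CPM in KO (log2 difference 1.38, SE 0.31, adjusted p = 0.44 by edgeR). Runx2, a Runt transcription factor, had 18.7 and 22.8 CPM in WT and 70.6 and 77.7 CPM in KO (log2 difference 1.84, SE 0.34).

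Cell cycle genes were called lower on few counts that came mostly from WT 1. Of 40 members, 9 were called lower and 1 higher, with a median of -1.33. The median went to -4.34 without KO 1 and to -0.61 without WT 1. Fits of the 6 NK or the 4 compared libraries called 4 and 3 members lower. With the replicate number as a block on the 6 NK libraries 2 were called lower, and 4 with the myeloid score described below in the fit. Birc5, the survivin gene of mitosis, had 248 and 47 counts in WT, against 6 and 4 in KO. Bub1b, a spindle checkpoint kinase, had 339 and 19 counts in WT, against 1 and 0 in KO, and Ccnb1, cyclin B1, had 94 and 3 counts in WT, against 0 in both KO libraries. Mki67, the proliferation marker, did not pass, with 87.0 and 49.9 CPM in WT, against 21.4 CPM in KO 1 and 0.443 CPM in KO 2 (log2 difference -2.66, SE 1.65). Mcm3, a subunit of the replicative helicase, was the member called higher, with 9.96 and 41.6 CPM in WT and 132 and 107 CPM in KO. Summed over the list the levels were 1172 and 959 CPM in WT and 961 and 693 CPM in KO, so the sums of WT 2 and KO 1 were level.

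Other groups showed few or no calls. MHC class I antigen processing genes had 0 of 22 members called, although 19 had negative differences with a median of -0.44. That median was -0.20 without WT 1, -0.58 without WT 2 and -0.19 with the myeloid score described below in the fit. B2m, the light chain of MHC class I, had 11038 and 9774 CPM in WT and 8221 and 6596 CPM in KO, below both WT libraries but by a log2 difference of only -0.49 (SE 0.13, adjusted p = 0.58 by edgeR). The MYC and ribosome biogenesis list had 1 of 27 members called higher and 0 lower, with a median of 0.16. That member was Nop58, a core protein of small nucleolar RNPs, with 82.5 and 87.0 CPM in WT and 203 and 211 CPM in KO.

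Among protein-coding genes outside these groups, Commd9, a subunit of the COMMD complex of endosomal recycling, had 406 and 525 counts in WT, against 0 and 1 in KO, a ratio of 983 with an exact 95% counting interval of 176 to 38879. Serpinb1a, an inhibitor of neutrophil serine proteases, had 496 and 290 counts in WT, against 0 in KO, at least 140-fold lower. In the other direction, Fbxo31, an F-box protein of a ubiquitin ligase, had 0 counts in WT, against 298 and 462 in KO, at least 119-fold higher. Nme7, a nucleoside diphosphate kinase family member, had 1 count in each WT library and 410 and 553 counts in KO, but it overlaps Atp1b1 on the other strand, and the sources used here do not give whether the counting used strand. Each of these genes was at or under the floor of 3 counts in both libraries of one group. Tbpl1 and Cpsf2, a TBP-like factor and a subunit of the mRNA cleavage complex, lay 3.04- and 5.34-fold higher in KO and were measurable in all 4 libraries.

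More than 50% of the lower genes were at the floor in both KO libraries. Both were at or under 3 counts in 238 of the 452, where the KO libraries can hardly differ. Of the other 214 lower genes, 122 were even, that is with the KO libraries within a factor of 2 of each other, among them Irf7, Bst2, Trim30a, Gzmb, Ctsc and Gapdh. This is 57.0%, against 49.9% of all genes above the floor, and a call by p itself favours genes with a small spread. The other 92 differed more than 2-fold between the KO libraries. With the genes at the floor included, 349 of the 452 were even, and of the 103 uneven ones 73 had KO 1 higher and 30 had KO 2 higher. Of the 216 higher genes, 130 were even. Both WT libraries were at or under 3 counts in 86 of the 216. Of the 34 lower ISG, 22 were even, 13 of them above the floor.

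Transcripts of myeloid cells, which the gate should exclude, were abundant in both WT libraries and in KO 1, and far lower in KO 2. The summed CPM of 40 myeloid genes was 25958 and 27689 in WT 1 and WT 2, 15858 in KO 1 and 1487 in KO 2. Of these 40 genes, 2 were at 0 counts in each WT library, 8 in KO 1 and 13 in KO 2. Apoe, an abundant macrophage lipid carrier, had 7119 and 5443 CPM in WT, against 1827 CPM in KO 1 and 1.99 CPM in KO 2. Lyz2, lysozyme, had 2505 and 2098 CPM in WT, against 3376 CPM in KO 1 and 19.4 CPM in KO 2, so KO 1 was the highest of all. Csf1r, the receptor for macrophage colony-stimulating factor, was instead low in both KO libraries, at 292 and 302 CPM in WT and at 2 and 3 counts in KO 1 and KO 2. It was 1 of 7 tested myeloid genes at or under the floor in both KO libraries, and 6 of these were called lower. Of 36 myeloid genes tested, 11 were called lower and 0 higher, with negative differences in 35 and a median of -2.66. Without KO 1 the fit called 19 lower, with a median of -10.54, and without KO 2 it called 7. In bulk libraries, fewer cells of a type and less RNA per cell cannot be told apart.

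**Figure D3:**
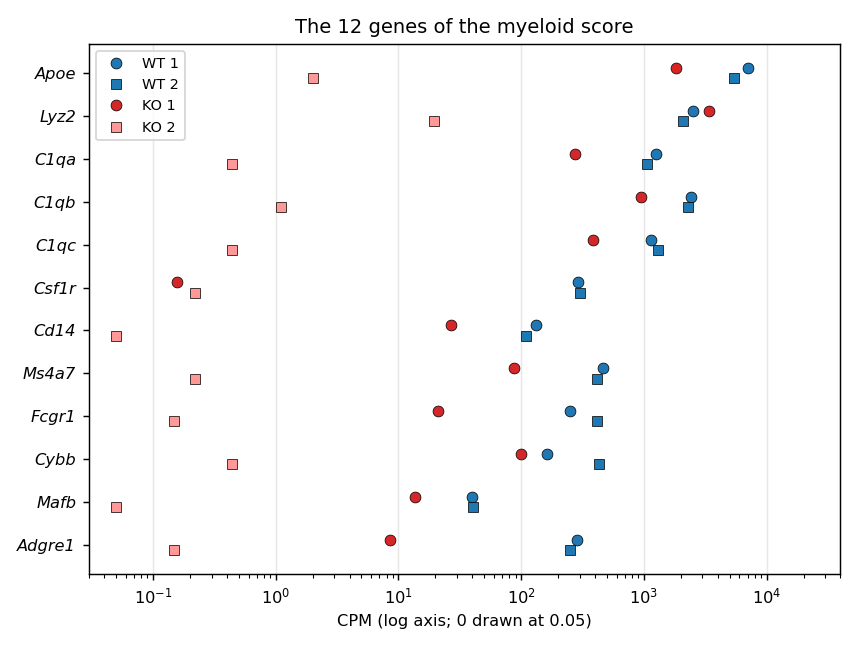
CPM of the 12 genes of the myeloid score in the 4 NK libraries, on a log axis with 0 drawn at 0.05. Blue symbols are WT, dark red KO 1 and light red KO 2, with circles for replicate 1 and squares for replicate 2. KO 2 lies at 19.4 CPM or below for every gene, KO 1 lies between KO 2 and WT except for Lyz2 and Csf1r, and Csf1r is near 0 in both KO libraries.

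The myeloid score, the mean log2 CPM of 12 macrophage and monocyte genes, was 9.06 and 9.12 in WT, 6.38 in KO 1 and -0.71 in KO 2. It was added to the fit as a covariate, and a called gene was said to follow it where less than 50% of its log2 difference remained. This was so for 45 of the 452 lower genes, 31 of the 103 uneven ones and 14 of the 349 even ones. It was also so for 20 of the 216 higher genes. The fit held a mean for each group, so the slope of the score came only from differences between replicates. The gap between KO 1 and KO 2 was the widest of these, and WT 1 and WT 2 hardly differed. Whether a gene followed the score thus depended largely on its own gap between KO 1 and KO 2, which also sets evenness. The split between even and uneven genes is therefore in part fixed by construction. Ctss, cathepsin S, had 2840 and 3426 CPM in WT, against 888 CPM in KO 1 and 243 CPM in KO 2, and its log2 difference went from -2.47 to -1.17. For Fcgr1, the high-affinity IgG receptor of macrophages, it went from -4.97 to -0.66, with 249 and 414 CPM in WT, against 21.1 CPM in KO 1 and 0.148 CPM in KO 2. Adgre1, which encodes the macrophage marker F4/80, went from -5.94 to -1.77. Fcgr1 and Adgre1 are themselves 2 of the 12 genes of the score, so that their values with it are in part fixed by its construction. Dab2, an endocytic adaptor and no member of the score, went from -5.10 to -2.11. A pair of ISG was among the 5 lower genes with the widest gap between the KO libraries. Ly6a, the Sca-1 antigen, had 449 and 498 CPM in WT, against 134 CPM in KO 1 and 2.59 CPM in KO 2, and its log2 difference went from -2.80 to -0.45. Oas1a had 119 and 136 CPM in WT, against 5.94 CPM in KO 1 and 0.0739 CPM in KO 2, and went from -5.41 to -2.12. Cd3e, called higher, also followed the score, from 1.93 to -0.13. It was high in KO 2 alone, the library with the lowest score, so this too was in part fixed by the fit.

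Calls were lost with the score in the fit even where the log2 difference stayed similar in size. Of 66 named genes that were called, 39 were still called and 27 were not. The sign turned in 5 of all 82 named genes, Cd3e, Lyz2, Apoe, Tyk2 and Cd8a, of which only Cd3e had been called. The log2 difference was then -1.86 for Irf7, -1.89 for Bst2, -1.75 for Trim30a, -1.63 for Gzmb, -1.60 for Ctsc, -1.13 for Gapdh and 2.85 for Cd160, and of these Irf7 and Gzmb no longer passed at the unadjusted level. The median of the OAS list moved from -0.94 to -2.02 while its calls went from 6 to 1. The median of the IFIT and MX list was -1.78, that of the TRIM and p200 list -1.59, and that of the glycolysis list -1.23, while that of the myeloid list turned to 0.62. Of the 34 ISG calls, 4 followed the score, as did 4 of the 11 called myeloid genes, so that a gene that did not follow it is not thereby set apart from myeloid genes. The fit with the score called 18 ISG list members lower, and 169 genes in all. The score was confounded in part with genotype, since both WT libraries stood above both KO libraries, and whether the remaining differences came from NK cells was not tested.

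**Figure D4:**
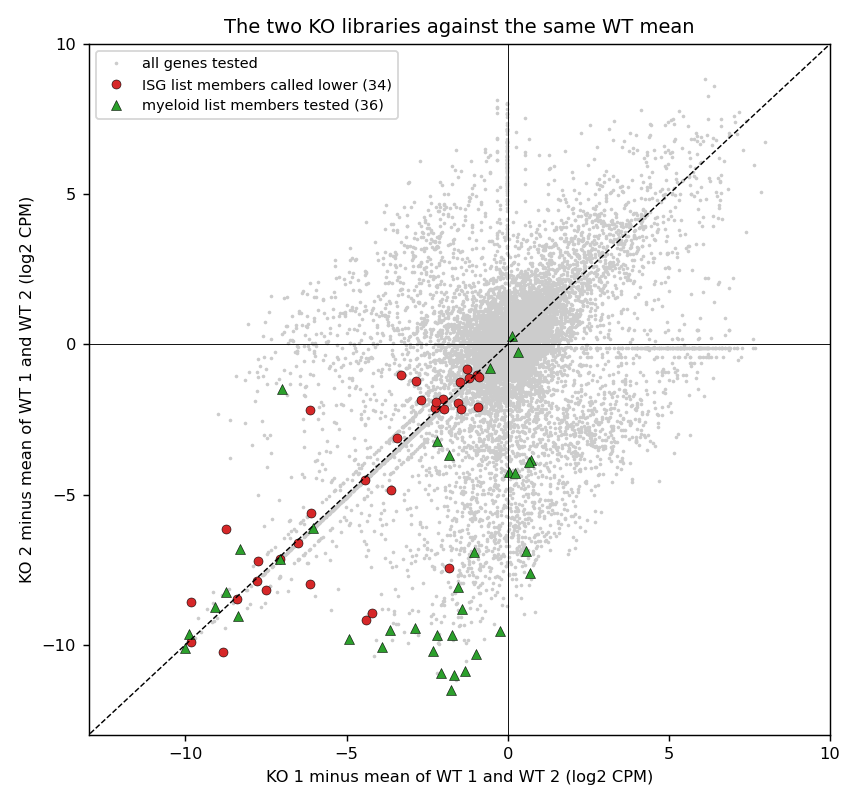
Log2 CPM of KO 1 (x axis) and KO 2 (y axis), each minus the mean of the 2 WT libraries, for 13279 genes in grey. Red circles are the 34 lower ISG and green triangles the 36 myeloid genes tested, and the dashed line marks equal values. Of the red circles 22 of 34 lie within 1 unit of the dashed line, while most green triangles lie far below it, with KO 2 lower than KO 1. The sets were chosen in unlike ways. Red circles are called genes only, and a call by p favours a small spread, while green triangles are called and uncalled genes. Of the 11 myeloid genes called lower, 6 were even, 0 of them above the floor, against 13 of the 22 even ISG. Both axes share the WT mean.

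Transcripts of other cell types were also measured. The T cell list summed to 1266 and 1369.5 CPM in WT, against 1812 CPM in KO 1 and 2358 CPM in KO 2, and 17 of 20 tested members had positive differences, with a median of 0.57, or -0.13 with the myeloid score in the fit. Only Cd3e was called higher. Neutrophil genes summed to 13.3 to 322 CPM, tumour epithelial genes to 23.5 to 102 CPM and stromal genes to 145 to 297 CPM. B cell genes summed to 290 to 604 CPM with 7 to 9 of 12 genes at 0 counts in each library, and dendritic cell genes to 184 to 361 CPM with 6 or 7 of 11 at 0. The red cell genes reached 1.92 CPM at most. The part of these transcripts in the results was not tested.

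CD8 T cells from the same kind of tumours gave 4 further libraries, 2 KO and 2 WT, that share no library with the NK comparison. Their myeloid scores lay between -0.10 and 1.65, low in both genotypes. In them 259 genes (1.95%) were called lower and 204 (1.54%) higher by the same rule, and 33 of the 89 ISG were called lower, with a median log2 difference of -1.92. Of the ISG called lower, 15 were so in both cell types, 44.1% of those in NK cells and 45.5% of those in CD8 T cells. Over all 89 ISG, 38.2% were called lower in NK cells and 33 of the 89 in CD8 T cells. The overlap thus lay only slightly above the share of the lists themselves. Over all genes 45 were called lower in both, 9.96% of those in NK cells and 17.4% of those in CD8 T cells. Irf7 differed by -3.07 in CD8 T cells, Trim30a by -2.47, Bst2 by -1.89 and Gzmb by -2.07 on the log2 scale. None of the 89 passed an FDR of 0.05 in the edgeR test of the difference between the cell types. At an unadjusted p under 0.05, 6 of the 89 differences were more negative in NK cells and 7 in CD8 T cells, against 3.25% and 2.04% of all genes. Ifit2 was among the first (log2 difference -7.06 in NK cells and -1.35 in CD8 T cells) and Oasl2, another member of the OAS family, among the second (-2.08 in NK cells and -8.04 in CD8 T cells). Ctsc differed by -1.93 in NK cells and 0.16 in CD8 T cells (adjusted p of the difference between cell types 0.39 by edgeR), and Cd160 by 2.01 and 0.92 (adjusted p = 0.90 by edgeR).

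**Figure D5:**
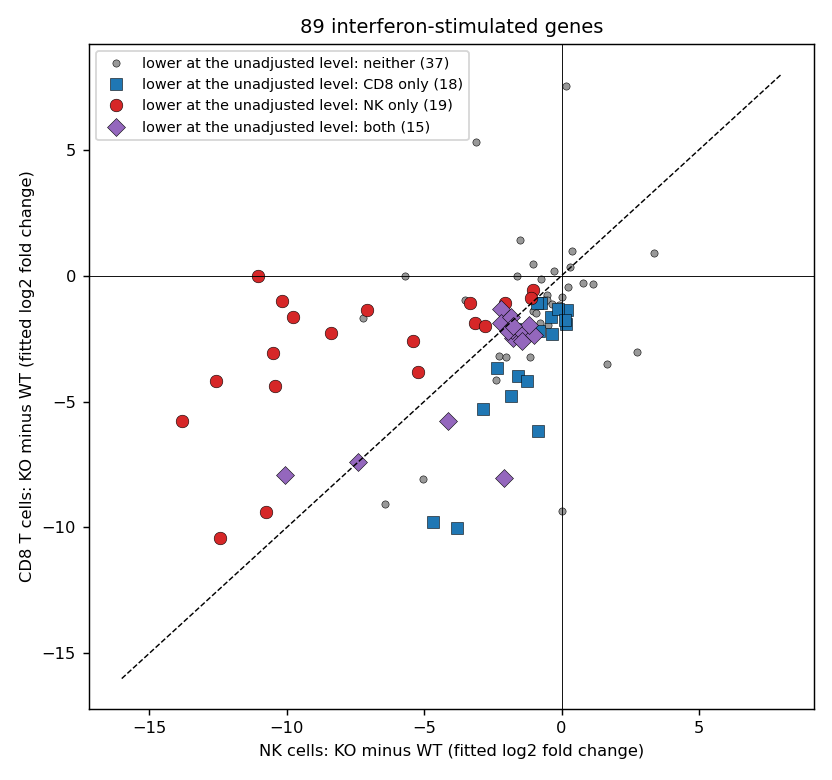
Fitted log2 fold change of KO against WT in NK cells (x axis) and CD8 T cells (y axis) for 89 ISG, with the dashed line at equal values. Diamonds were called lower at the unadjusted level in both cell types (15), circles in NK cells only (19), squares in CD8 T cells only (18) and grey points in neither (37). Most points lie below 0 on both axes, and values beyond about -8 belong to genes at or near 0 counts in one group.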

How the data were processed

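RNA was measured in NK cells sorted from MC38 tumours, in 2 libraries labelled KO and 2 labelled WT. The other 8 libraries of the series entered the fits to share the estimate of spread, among them the TYK2KE libraries of both cell types. The authors made cDNA by Smart-seq2 and sequencing libraries with a Nextera kit. Trimmomatic and STAR served for trimming and for alignment to mm10 (GRCm38), and the authors counted uniquely aligned reads over exons of GENCODE genes. The deposited values are raw counts, 1 column for each library. Unique alignment undercounts genes with near copies, and the use of strand in counting is not given in the sources used here. The table held 54232 gene identifiers, and names and coordinates came from GENCODE M21 (GRCm38).

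Genes with a mean TMM-normalized count of at least 10 over the 12 libraries were kept (13279). The test was that of edgeR 4.0.16 under R 4.3.3 (TMM, robust quasi-likelihood F-test, two-sided, 6 group means), and p-values were adjusted by Benjamini-Hochberg over all genes tested. SE was obtained as the size of the log2 fold change over the root of its F statistic. Log2 CPM used a prior count of 2. Counts at or under 3 per library were taken as the floor, and a fold against a group at 0 was computed against it. Intervals for groups with 1 to 3 counts are exact binomial (95%). Alternatives were DESeq2 1.42.0, fits of the 6 NK or the 4 compared libraries, DESeq2 size factors, no filter, leaving out each library, the replicate number as a block, and the myeloid score as a covariate. The fit was tested on simulated data.

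Named genes were Tyk2 and the sort markers, up to 4 called members of each list with the smallest p together with Irf7, Irf9, Stat2, Ifng, Gzmb, Prf1, Mki67, Lyz2 and B2m, the 12 lower and 8 higher protein-coding genes with the smallest p that were even between the KO libraries, the 5 lower genes with the largest gap between them, and up to 6 genes that were DEG in an alternative edgeR fit of the 12 libraries. Not every gene this rule allows is described. Ifit1, Isg15, Ifi44, Oasl2 and Trim12a were added after their values were seen. The libraries compared and the gene lists were chosen with earlier results of these data known. Nearly all lists came from general knowledge, and the robust and tunable ISG from the study. Titles give only a replicate number and do not say whether it pairs libraries of the 2 genotypes. Pearson's r between the replicate differences of KO and WT was 0.01 over the genes tested. With 1 such difference per genotype this cannot show whether libraries were paired.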

Additional observations from a re-analysis of the deposited data

How the results depend on the processing

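The count of DEG depended on the tool and the filter. It was 0 with edgeR, and remained 0 on the 6 NK libraries alone and with DESeq2 size factors. It was 363 with DESeq2, 3 with edgeR on the 4 libraries compared and 195 without the filter on low counts, where all 195 DEG were genes also tested with the filter. The cause was not tested. Leaving out 1 library at a time gave 0 to 5 DEG, 5 without KO 1 and 2 without KO 2. The lone library is then assumed to vary like the other groups.

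The count of lower genes ranged from 239 to 480 when 1 library was left out. It was 239 without KO 2, 241 without WT 1 and 294 without WT 2, against 452 with all libraries. The count of higher genes ranged from 123 to 174, with 123 without KO 2, against 216. DESeq2 gave 342 higher genes. With the myeloid score as a covariate the counts were 169 lower and 106 higher. The other alternatives stayed within 1.5 times.

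The replicate number as a block over the 12 libraries gave 0 DEG, 388 lower and 195 higher genes, and over the 6 NK libraries 0, 321 and 153. Whether the numbers pair libraries is not given, and with 2 libraries a group no pairing can be read from the data.

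Of 82 named genes, 73 had the same sign under all 12 alternatives. With the score as a covariate the median of the myeloid list turned to 0.62, Cd3e to -0.13, Lyz2 to 3.33, Apoe to 2.32, Tyk2 to -0.46 and Cd8a to -0.53. Pdcd1 ranged from -0.28 without KO 1 to 4.18 without WT 2. Genes at 0 counts are known only to lie below the floor.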
